A study of Mus musculus with 20 samples.

Results

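The genes described here encode the mouse proteasome, its assembly chaperones and its activators, measured in the left ventricle with Illumina bead chip arrays. Members were all genes whose symbol begins with *Psma*, *Psmb*, *Psmc*, *Psmd*, *Psme*, *Psmf* or *Psmg*, without the interferon-induced subunits *Psmb8* and *Psmb9*. This gave 47 of the 19057 genes named by a single symbol on the array, with 83 of its 45281 probes. Of these, 45 genes encode subunits, activators or assembly factors, and *Psmc3ip* and *Psme3ip1* encode interacting proteins that only share the name. The array carried 1 probe for 20 of the members and 2 to 4 probes for the other 27. No probe was named *Psmf1*, the inhibitor, which is not analysed here.

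The 26S proteasome degrades proteins that carry ubiquitin chains. Its barrel-shaped 20S core consists of outer rings of alpha subunits (*Psma*) that gate the entry and inner rings of beta subunits (*Psmb*), some of which cut peptide bonds. The 19S regulatory particle caps the core with a ring of ATPases (*Psmc*), which unfold the substrate, and a set of non-ATPase subunits (*Psmd*), which bind and remove ubiquitin. In the heart muscle cell this machinery removes damaged and surplus sarcomere proteins, and its capacity has long been studied in pressure-overloaded hearts.

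The study asked whether *de novo* DNA methyltransferases of the heart muscle cell matter for the response to pressure overload. All mice were male and carried homozygous floxed *Dnmt3a* and *Dnmt3b* alleles. Double knockout mice (DKO) also expressed Cre recombinase under the atrial myosin light chain (*Myl7*) promoter, which deletes the exons for the catalytic domains in cardiomyocytes, and control mice (CTL) had no Cre. At 10 to 12 weeks of age they underwent transverse aortic constriction (TAC), a narrowing of the aortic arch, or a sham operation, and tissue was taken 4 weeks later, at 14 to 16 weeks. Each sample was on 1 array, with n = 4 per genotype after the sham operation and n = 6 per genotype after TAC. The strain is not given in the sources used here. Cre acts in cardiomyocytes only while RNA came from whole ventricular tissue, in which fewer cells of a type and less RNA per cell cannot be told apart. The methods give these numbers as mice.

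The deposited intensities had been normalized as separate sets, with array medians of 47.5 in the 8 sham arrays and 58.6 in the 12 TAC arrays. They were therefore quantile normalized again over all 20 arrays, and surgery and array set cannot be told apart in any TAC comparison. A probe was called when limma gave an adjusted p under 0.05 over all probes and a fold above 1.5. As deposited, the median probe was 0.28 log2 units higher after TAC in CTL hearts and 0.29 in DKO hearts, and after joint normalization 0.01 and 0.02. All *Dnmt3a* probes were near background, and the brightest *Dnmt3b* probe did not pass the test between genotypes (log2 difference -0.15 ± 0.08 in sham hearts, limma adjusted p = 0.924, and 0.06 ± 0.07 after TAC, adjusted p = 0.841). The place of these probes relative to the deleted exons is not given in the sources used here, so they do not check the labels. Of 5 TAC markers, 5 passed the adjusted p upward in CTL and 3 in DKO hearts. *Nppa* rose by 2.24 and 1.32 log2 units, *Acta1* by 2.26 and 1.80 and *Myh7* by 1.04 and 1.05, while *Nppb* (0.80 in CTL hearts) was at 0.48 and *Postn* (0.22) at 0.03 in DKO hearts.

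To show the regulatory sequence next to the measurements, the 100 bases before the transcription start are given for genes from each end of the TAC comparison. *Psmd6*, *Psmd12* and *Psmd14* had probes that fell, *Psmb10* had the 1 probe called higher, and *Psma5*, *Psmb4* and *Psmd4* had bright probes that passed the adjusted p upward and went to between -0.03 and 0.11 with array medians set equal. The sequences are from RefSeq promoter windows on GRCm38.p6, written 5′ to 3′ on the strand of the gene. Capitals mark a GC box, a CCAAT box, an ETS-type site or an antioxidant response element, defined below. *Psmd6* lies on the minus strand at chr14:14120946-14121045, *Psmd12* on the plus strand at chr11:107479428-107479527 and *Psmd14* on the plus strand at chr2:61711594-61711693. *Psma5* lies on the plus strand at chr3:108256826-108256925, *Psmb4* on the minus strand at chr3:94886959-94887058 and *Psmd4* on the minus strand at chr3:95042615-95042714. *Psmb10* lies on the minus strand at chr8:105938393-105938492.
Psmd6: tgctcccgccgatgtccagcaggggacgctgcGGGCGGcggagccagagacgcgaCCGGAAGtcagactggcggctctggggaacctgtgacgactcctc
Psmd12: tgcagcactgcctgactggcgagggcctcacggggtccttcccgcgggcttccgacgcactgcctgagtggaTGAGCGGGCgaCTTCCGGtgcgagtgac
Psmd14: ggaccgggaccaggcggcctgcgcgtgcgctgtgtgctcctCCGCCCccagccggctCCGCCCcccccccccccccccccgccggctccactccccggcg
Psmb10: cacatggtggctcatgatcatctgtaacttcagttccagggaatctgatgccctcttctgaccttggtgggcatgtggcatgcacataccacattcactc
Psma5: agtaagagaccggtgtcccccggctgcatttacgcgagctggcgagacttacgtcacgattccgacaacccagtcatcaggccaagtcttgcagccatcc
Psmb4: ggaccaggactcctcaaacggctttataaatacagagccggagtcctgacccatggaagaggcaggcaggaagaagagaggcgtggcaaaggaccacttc
Psmd4: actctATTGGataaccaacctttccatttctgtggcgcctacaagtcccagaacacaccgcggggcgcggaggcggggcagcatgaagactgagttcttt

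These stretches differ in base composition, with 85% G and C in *Psmd14*, 70% in *Psmd6* and 69% in *Psmd12* against 58% in *Psma5*, 55% in both *Psmb4* and *Psmd4* and 50% in *Psmb10*. The motif search covered whole windows of 300 bases, 250 before and 50 after the start, on both strands, and 39 of the 47 members had a window. The ETS-type site CCGGAAG was found in 16 of 39 member genes (41%), against 9.93% of the 27025 genes with a window. The GC box GGGCGG was found in 23 members (59%) against 38.2% of all genes. The median G and C content of the windows was 59% for members and 52.7% for all, and the part of this difference in the motif counts was not tested. The CCAAT box was found in 15 members (38.5%, against 41.1% of all genes). The antioxidant response element, the letters bound by Nrf1 and Nrf2, was found as TGACNNNGC in 6 members (15.4%, against 14% of all) and as TGAGNNNGC in 13 (33.3%, against 19.8%). The ETS-type letters occurred on both sides of the TAC comparison. Of 9 genes with a probe called lower in either genotype, 8 had a window, and 5 of these 8 had the letters. The brightest probe of 11 genes was higher at an adjusted p under 0.05 in both genotypes. Of these, 10 had a window, and 4 of the 10 had the letters. The GC box was found in 6 of the 8 and 3 of the 10 genes, and the CCAAT box in 2 and 3. The antioxidant response element was found in 3 and 0 as TGACNNNGC and in 3 and 5 as TGAGNNNGC. These small counts were not tested.

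Loss of *Dnmt3a* and *Dnmt3b* was not accompanied by a called change in any proteasome gene. In sham hearts 0 of the 83 probes were called between DKO and CTL, where 0.102% of all probes were, and 3 had an unadjusted p under 0.05 in limma, as did 5.55% of all probes. After TAC again 0 of 83 were called (0.144% of all probes), with 9 at an unadjusted p under 0.05, against 8.99% of all probes. The test of whether the genotype difference itself depended on TAC called 0 of 83 (0.00221% of all probes), with 1 at an unadjusted p under 0.05, against 4.71% of all probes. The median probe difference of the members was -0.02 log2 units in sham hearts and -0.04 after TAC, against -0.003 and -0.0006 over all probes. Counted by the brightest probe of each gene, 36 of 47 genes had a lower mean in TAC DKO than in TAC CTL hearts. In sham hearts 30 of 47 were lower in DKO than in CTL. This count was not made over all genes, and 10 of the 47 probes were near background. The median difference of the 47 probes was -0.06 after TAC and -0.02 in sham hearts.

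The size of differences that these arrays leave possible was given by the 95% intervals of limma. For 82 of 83 probes in sham hearts, 81 after TAC and 74 in the test of the interaction, the whole interval lay within a 1.5-fold difference in either direction. The 83 include 23 probes near background, for which an interval says little about the gene. The lowest adjusted p in sham hearts belonged to *Psmb10*, which encodes the beta subunit that replaces the trypsin-like site in the immunoproteasome (log2 difference -0.25 ± 0.11, limma adjusted p = 0.86). Sham CTL hearts had 609, 659, 678 and 904 intensity units on this probe and sham DKO hearts 603, 571, 566 and 634. The groups overlapped, and sham CTL replicate 4 was the highest of all. *Psmd4*, a ubiquitin receptor, had 3594, 3786, 3822 and 3989 units in sham CTL and 3446, 3471, 3378 and 3502 in sham DKO hearts. These groups did not overlap, yet the difference of -0.14 ± 0.06 had an adjusted p of 0.87 in limma. Of the 83 member probes, 5 had all sham DKO arrays below and 1 above all sham CTL arrays, a count not made over all probes.

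After TAC the lowest adjusted p between genotypes was found for *Psma8*, the alpha subunit of the testis proteasome, on a probe that was near background in every group (0.34 ± 0.09, limma adjusted p = 0.16). Its values ran from 44.3 over a median of 47.8 to 64.7 in TAC CTL and from 56.6 over 62.1 to 77.5 in TAC DKO hearts, with overlap. *Psmd14*, the deubiquitinase that cuts ubiquitin chains from the bound substrate, had the largest difference in the other direction (-0.37 ± 0.12, limma adjusted p = 0.33), and its second probe -0.26 ± 0.12. On the first of these probes TAC CTL hearts ranged from 170.0 over 243 to 280 units and TAC DKO hearts from 127 over 177 to 230, again with overlap.

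**Figure D1:**
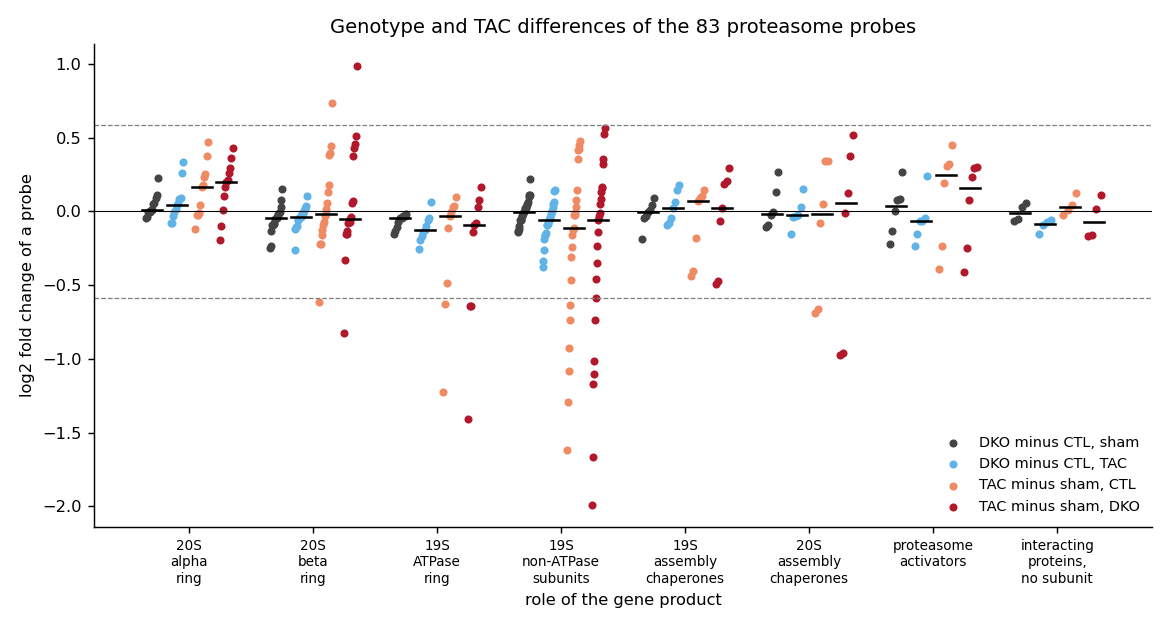
Log2 fold change (y axis) of each of the 83 probes by role of the gene product (x axis), for DKO minus CTL in sham and TAC hearts and for TAC minus sham in CTL and DKO hearts. Points are probes, black lines medians and dashed lines a 1.5-fold difference; all genotype differences lie between -0.37 and 0.34, and the TAC differences reach -1.99 among the 19S non-ATPase subunits, while of the 16 and 18 probes that passed the adjusted p above 0, all keep their sign as deposited and 13 and 12 change it when array medians are set equal.

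After TAC the proteasome genes did not move as one group. In CTL hearts 11 of 83 probes, from 8 genes, were called lower (13.3%, against 3.4% of all probes) and 1 was called higher (1.2%, against 1.76%). In DKO hearts 13 probes, from 9 genes, were called lower (15.7%, against 4.27%) and 1 higher (1.2%, against 2.46%). These shares do not compare probes of like intensity, since 60 of the 83 member probes but only 29.8% of all probes were not near background. The 11 probes called in CTL hearts were all among the 13 called in DKO hearts, a comparison of other arrays on both sides but of the same array sets. The median difference was -0.01 in both genotypes, against 0.01 and 0.02 over all probes. Counted by the brightest probe of each of the 47 genes, 0 were called higher and 4 lower in CTL hearts, and 0 higher and 6 lower in DKO hearts. The share by brightest probe over all genes was not counted.

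With the adjusted p alone, 16 probes were higher and 17 lower in CTL hearts (11.7% and 10.2% of all probes), and 18 higher and 21 lower in DKO hearts (15.4% and 12.7%). Among the 46 member probes with a mean above 200 units, 15 were higher and 6 lower in CTL hearts, or 32.6% and 13%, against 33.1% and 20.5% of equally bright probes on the array. In DKO hearts 16 were higher and 8 lower, or 34.8% and 17.4%, against 37% and 23.7%. The sign of the higher probes depended on the scaling. As deposited, 16 of the 16 in CTL hearts and 18 of the 18 in DKO hearts kept it. Setting array medians equal lowers all TAC differences by nearly the same amount from there, and 13 of the 16 and 12 of the 18 then had the opposite sign. As deposited, 28 members were higher and 28 lower at an adjusted p under 0.05 in CTL hearts, or 33.7% each, against 68.5% and 10.1% of all probes. In DKO hearts 29 were higher and 28 lower, against 68.9% and 10.8% of all probes. With array medians set equal, 0 members were higher and 44 lower in CTL hearts, against 5.47% and 21.4% of all probes, and 3 were higher and 45 lower in DKO hearts, against 8.22% and 22.2%. The members with a mean above 200 units then had a median of -0.43 in CTL and -0.38 in DKO hearts, and all probes that bright -0.36 in both. The probes called lower kept their sign under both scalings. By the adjusted p alone, the 17 lower probes of the CTL comparison did so too. Among the 21 lower probes of the DKO comparison, 2 had the opposite sign as deposited. These belonged to *Psma3* and *Psme3ip1* and were near background. All 21 kept their sign when array medians were set equal.

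**Figure D2:**
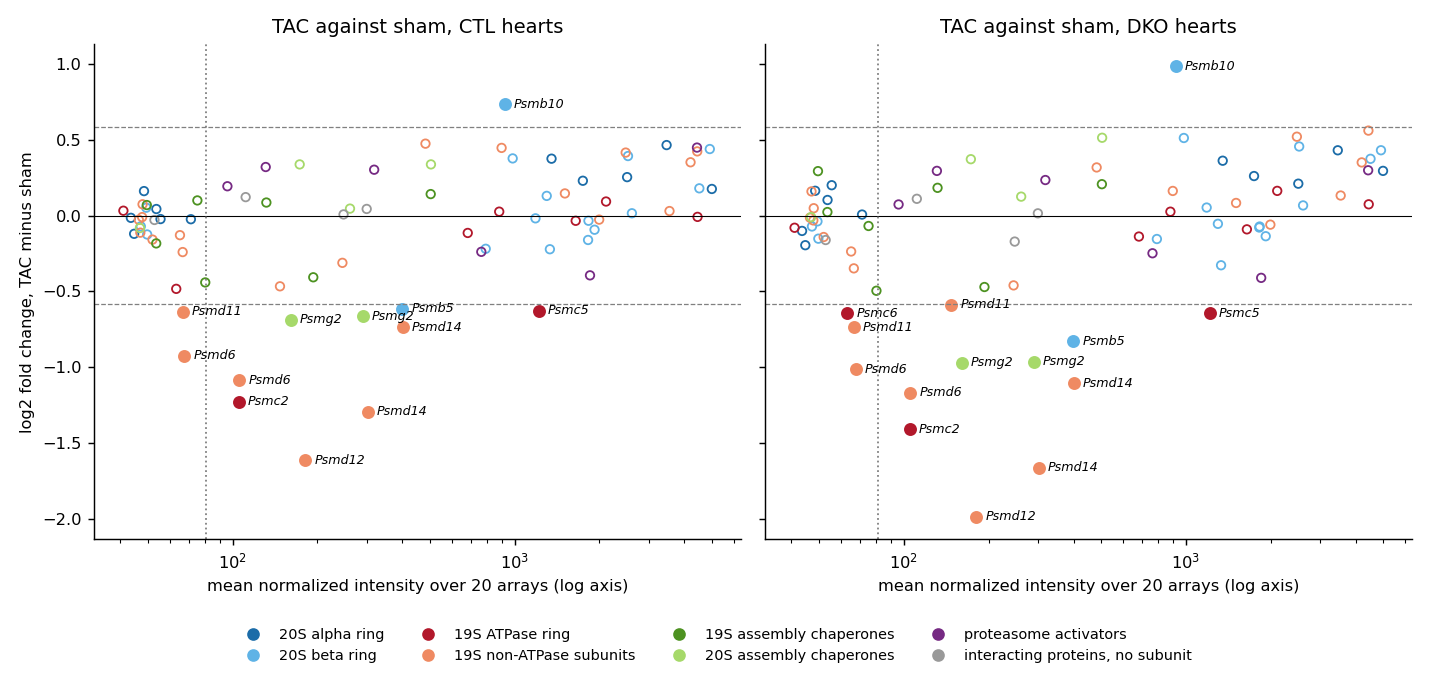
Log2 fold change of TAC against sham (y axis) and mean normalized intensity over 20 arrays (x axis, log scale) of the 83 probes, with CTL hearts on the left and DKO hearts on the right. Filled points are called and named, colours give the role, dashed lines a 1.5-fold difference and the dotted line the level under which a probe was taken as near background; called probes lie below 0 apart from *Psmb10*, and of the 16 and 18 probes that passed the adjusted p above 0, all keep their sign as deposited and 13 and 12 change it when array medians are set equal.

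**Figure D3:**
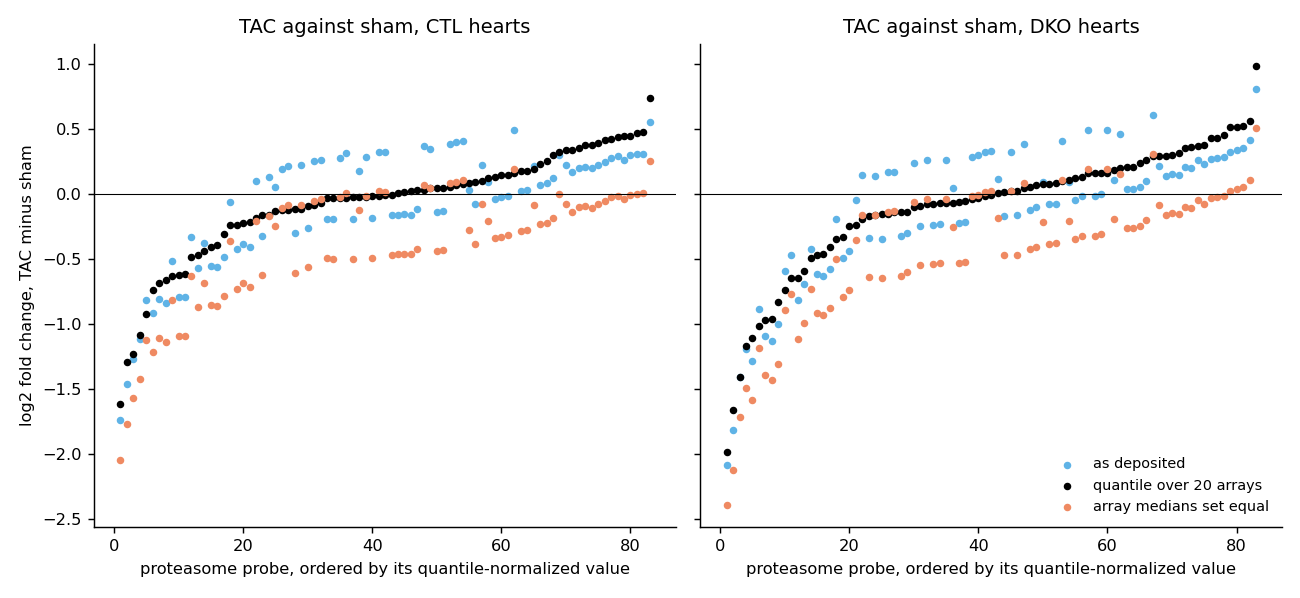
Log2 fold change of TAC against sham (y axis) of the 83 probes in the order of their value after joint quantile normalization (x axis), under 3 scalings of the arrays. The lower end stays below 0 under each scaling, whereas most probes at the upper end fall to about 0 or below it when array medians are set equal.

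Among the alpha subunits, which form the gate of the core, 4 of 11 probes passed the adjusted p upward in CTL hearts and 5 in DKO hearts. None of these was above 1.5-fold, and 0 and 1 passed downward. Upward, 11.7% and 15.4% of all probes passed, and 33.1% and 37% of those with a mean above 200 units. *Psma5* had 2842, 2832, 2688 and 2757 units in sham CTL and 2790, 2985, 3117 and 2965 in sham DKO hearts. After TAC it ranged from 3643 over 3710 to 4226 in CTL and from 3738 over 3984 to 4294 in DKO hearts, so that sham and TAC groups did not overlap. The difference was 0.47 ± 0.06 in CTL (limma adjusted p = 2.95e-06) and 0.43 ± 0.06 in DKO hearts, and it was 0.31 and 0.27 as deposited and 0.004 and -0.03 with array medians set equal. *Psma4* and *Psma7* were 0.26 and 0.23 log2 units higher in CTL hearts, and both were below 0 with array medians set equal. The probes for *Psma1*, *Psma3* and *Psma6* were near background in every group, although these subunits are part of every proteasome, and their levels are not described.

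The beta subunits include the catalytic sites. *Psmb5*, which carries the chymotrypsin-like activity, had 513, 511, 551 and 626 units in sham CTL and 519, 493, 483 and 640 in sham DKO hearts. After TAC it ranged from 300.4 over 369 to 423 in CTL and from 236 over 302 to 364 in DKO hearts, below every sham array. It fell by 0.61 log2 units (SE 0.12, limma adjusted p = 0.000414) in CTL and by 0.83 (SE 0.12, adjusted p = 9.17e-06) in DKO hearts. The array carried a single probe for this gene. In CTL hearts it stayed past the adjusted p but under 1.5-fold without sham CTL replicate 4 (-0.55), TAC CTL replicate 1 (-0.58) or TAC CTL replicate 2 (-0.56).

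*Psmb6*, which carries the caspase-like activity, did not pass the test on either probe in either genotype. Its brightest probe had 1934, 1908, 2235 and 2229 units in sham CTL and ranged from 1791 over 1977 to 2110 in TAC CTL hearts, with overlap (-0.09 ± 0.07, limma adjusted p = 0.415). *Psmb7*, the trypsin-like subunit, had 4 probes with differences from -0.22 to 0.13 in CTL hearts, none of which passed. In DKO hearts 1 of the 4 probes passed the adjusted p (-0.33 ± 0.12, limma adjusted p = 0.048) and the brightest was at 0.07 ± 0.08. The 4 probes did not follow the same array, since sham CTL replicate 4 was lowest of its group on 3 of them and highest on the fourth.

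*Psmb10* was the only member called higher. On the called probe sham CTL hearts had 609 to 904 units and sham DKO hearts 566 to 634, while TAC CTL hearts ranged from 1009 over 1190 to 1373 and TAC DKO hearts from 1015 over 1164 to 1348. No TAC array lay within the range of its sham group. The difference was 0.74 ± 0.10 in CTL (limma adjusted p = 9.51e-06) and 0.99 ± 0.10 in DKO hearts, and with array medians set equal 0.25 (adjusted p = 0.076) and 0.51. The other probe of this gene passed the adjusted p below 1.5-fold, with 0.38 ± 0.11 and 0.51 ± 0.11, and was at -0.11 and 0.02 with array medians set equal.

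*Psmb4*, a structural beta subunit without a catalytic site, had 4062, 4037, 4511 and 3676 units in sham CTL and 5232 over 5449 to 6015 in TAC CTL hearts, without overlap. Its difference of 0.44 ± 0.07 in CTL (limma adjusted p = 3.02e-05) and 0.43 ± 0.07 in DKO hearts was -0.01 and -0.02 with array medians set equal. *Psmb2*, also without a catalytic site, had 4076, 4226, 4327 and 3996 units in sham CTL and 4193 over 4701 to 5171 in TAC CTL hearts on its brightest probe, with overlap. That probe stood at 0.18 ± 0.08 in CTL hearts, where it did not pass (limma adjusted p = 0.125), and at 0.38 ± 0.08 in DKO hearts, where it passed (adjusted p = 0.0012), and at -0.27 and -0.08 with array medians set equal. A dimmer *Psmb2* probe passed in both genotypes, at 0.39 ± 0.08 and 0.46 ± 0.08, and was at -0.08 and -0.01 with array medians set equal. *Psmb1* and *Psmb3* did not pass in either genotype on their brightest probe, *Psmb1* at -0.02 and 0.05 and *Psmb3* at -0.03 and -0.07. The thymus subunit gene *Psmb11* was near background.

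The 6 ATPases of the base fell on 3 of 9 probes at an adjusted p under 0.05 in each genotype, and 0 passed in the upward direction. Each of these 3 probes belonged to a gene whose other probe did not pass. Downward, 10.2% of all probes passed in CTL and 12.7% in DKO hearts, and 20.5% and 23.7% of those with a mean above 200 units. *Psmc5* had 1474, 1723, 1503 and 2034 units in sham CTL and 1391, 1394, 1565 and 1680 in sham DKO hearts on its brightest probe. It ranged from 888 over 1156 to 1243 in TAC CTL and from 832 over 908 to 1163 in TAC DKO hearts, without overlap. The fall was -0.63 ± 0.12 in CTL (limma adjusted p = 0.000289) and -0.64 ± 0.12 in DKO hearts, while the second *Psmc5* probe stood at 0.03 ± 0.08 in both. The CTL value was under 1.5-fold without sham CTL replicate 4 (-0.53), TAC CTL replicate 1 (-0.57) or TAC CTL replicate 2 (-0.58). *Psmc6* fell on a probe near background, from 76.6 to 88.7 units in sham CTL to a TAC CTL range of 49.0 over 57.9 to 67.7 (-0.48 ± 0.10), and in DKO hearts it was called (-0.64 ± 0.10, limma adjusted p = 2.33e-05), though not without TAC DKO replicate 4 (-0.58). The second *Psmc6* probe, also near background, stood at 0.03 ± 0.08 in CTL and -0.08 ± 0.08 in DKO hearts. *Psmc1*, *Psmc3* and *Psmc4* had differences between -0.14 and 0.16, and none passed.

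The 19S non-ATPase subunits held the largest falls, with 6 of 23 probes called lower in CTL and 7 in DKO hearts. Of all probes, most of them near background, 3.4% and 4.27% were called lower. *Psmd14* fell on both of its probes. The brighter one had 528, 649, 622 and 487 units in sham CTL and 571, 590, 605 and 689 in sham DKO hearts, and ranged from 286 over 352 to 412 in TAC CTL and from 224 over 271 to 379 in TAC DKO hearts. The other had 540, 550.1, 564 and 586 units in sham CTL and 503, 621, 545 and 569 in sham DKO hearts, against TAC ranges of 170.0 to 280 and 127 to 230. No TAC array reached its sham group on either probe. The differences were -0.74 ± 0.13 and -1.29 ± 0.14 in CTL (limma adjusted p = 0.000207 and 3.09e-07), and -1.11 ± 0.13 and -1.66 ± 0.14 in DKO hearts (limma adjusted p = 9.29e-07 and 5.35e-09).

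*Psmd6*, a lid subunit, also fell on both probes. The brighter had 168, 176, 199 and 139 units in sham CTL and 178, 152, 182 and 163 in sham DKO hearts. After TAC it ranged from 62.4 over 79.5 to 92.9 in CTL and from 62.7 over 73.8 to 88.1 in DKO hearts, without overlap and close to the background level of 80.8 units. The fall was -1.08 ± 0.11 (limma adjusted p = 1.63e-07) and -1.17 ± 0.11 on this probe, and -0.92 ± 0.10 and -1.01 ± 0.10 on the other. *Psmd11*, another lid subunit, fell on the probe with a mean of 66.6 units (-0.63 ± 0.10 in CTL and -0.74 ± 0.10 in DKO hearts) and on its brightest (-0.47 ± 0.10 and -0.59 ± 0.10). The first was under 1.5-fold in CTL hearts without TAC CTL replicate 1 (-0.58), and the second in DKO hearts without any 1 of TAC DKO replicates 2, 3 and 4 or sham DKO replicate 4 (-0.58 to -0.54). The remaining *Psmd11* probe, near background, stood at -0.11 and 0.16.

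*Psmd4* and *Psmd13* passed the adjusted p upward in both genotypes, as did the brightest *Psmd1* probe. In CTL hearts a *Psmd7* probe was higher still, at 0.48 ± 0.15 (limma adjusted p = 0.0238). It did not pass in DKO hearts (0.32 ± 0.15, limma adjusted p = 0.12). After TAC *Psmd4* ranged from 4664 over 5082 to 5597 units in CTL and from 4817 over 5024 to 5466 in DKO hearts, above all sham arrays. Its difference was 0.42 ± 0.06 in CTL and 0.56 ± 0.06 in DKO hearts (limma adjusted p = 7.12e-06 and 1.02e-07), and it was 0.28 and 0.41 as deposited and -0.02 and 0.11 with array medians set equal. *Psmd13*, a lid subunit, was 0.42 ± 0.07 and 0.52 ± 0.07 higher, and -0.06 and 0.05 with array medians set equal. *Psmd8* showed how wide the spread could be, with 845, 584, 977 and 716 units in sham CTL and a difference of 0.45 ± 0.18 that did not pass (limma adjusted p = 0.089). The probes for *Psmd2* and *Psmd3* were near background.

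**Figure D4:**
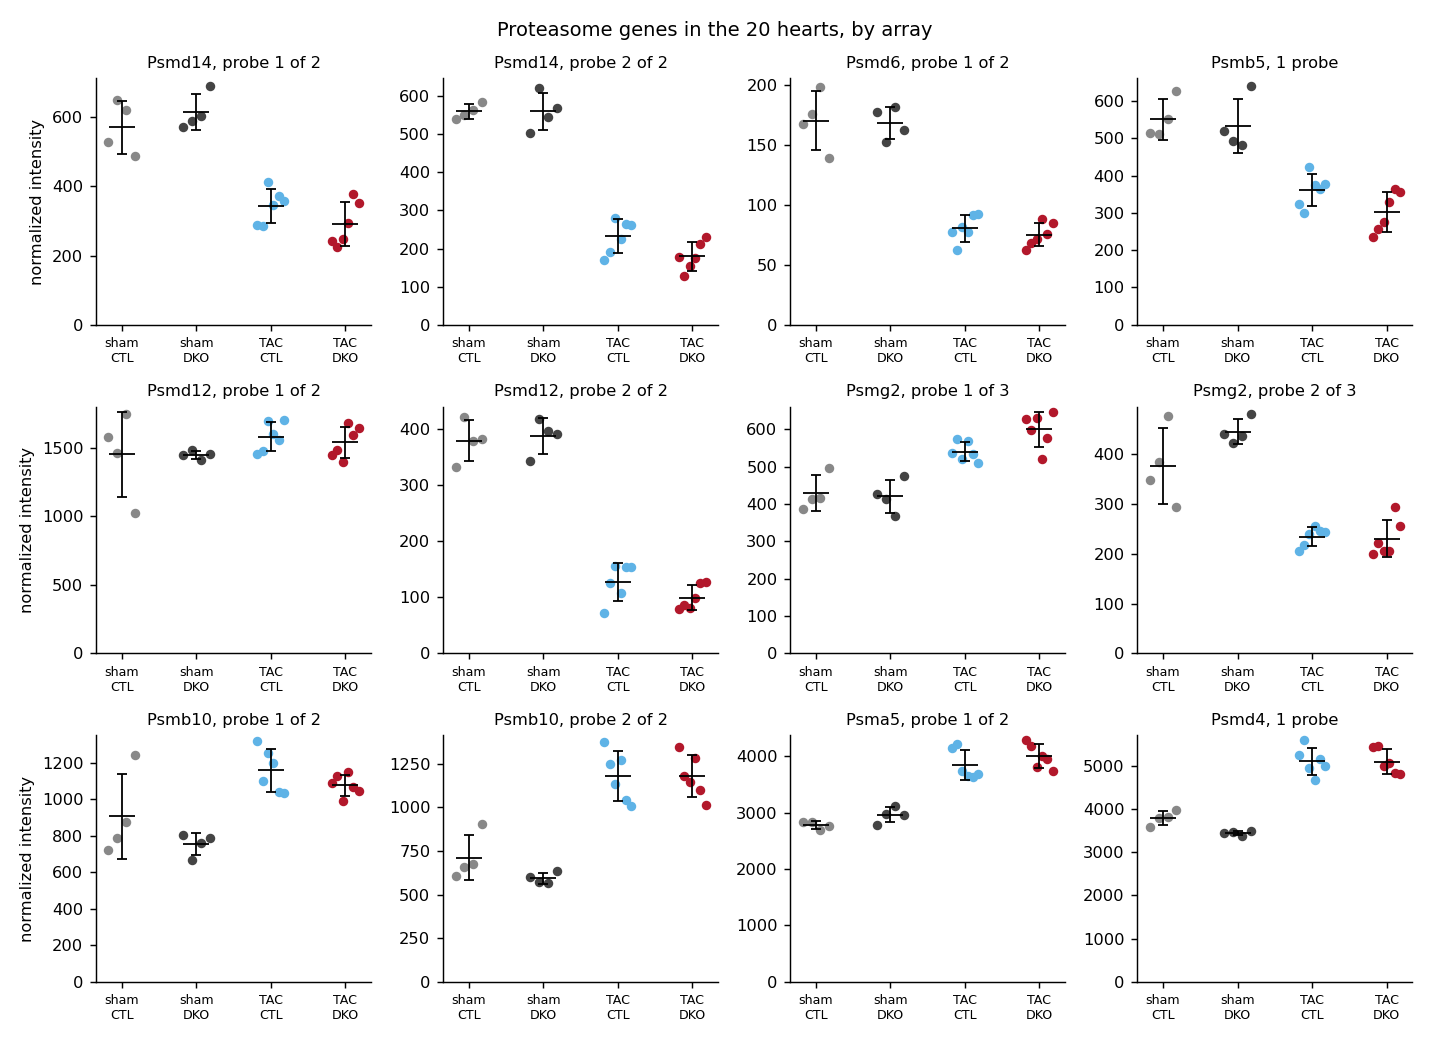
Normalized intensity (y axis, linear from 0) of 12 probes in both genotypes after sham operation and after TAC (x axis), with 1 point per array and the mean ± SD in black. *Psmd14*, *Psmd6* and *Psmb5* have no TAC array within the sham range, and 1 of 2 probes of *Psmd12* and of the shown *Psmg2* probes is lower after TAC while the other is not; the differences of *Psma5* and *Psmd4* remain as deposited (0.31 and 0.28 in CTL hearts) and lie between -0.03 and 0.11 when array medians are set equal.

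For several genes the answer depended on the probe. In CTL hearts 1 of 3 *Psmd7* probes passed the adjusted p upward (0.48 ± 0.15). It had 419, 486, 481 and 212 units in sham CTL and 489 over 528 to 586 in TAC CTL hearts. The dimmest *Psmd7* probe, near background, passed downward (-0.24 ± 0.07, limma adjusted p = 0.019), and the brightest stood at -0.03 ± 0.07. *Psmd12*, a lid subunit, gave the largest fall of all members on its dimmer probe. That probe had 333, 423, 379 and 384 units in sham CTL and 344, 419, 396 and 392 in sham DKO hearts, against 71.6 over 139 to 156 in TAC CTL and 79.0 over 92.3 to 127 in TAC DKO hearts. The fall was -1.62 ± 0.17 in CTL and -1.99 ± 0.17 in DKO hearts (limma adjusted p = 3.51e-07 and 1.2e-08). Its brighter probe had 1576, 1461, 1750 and 1024 units in sham CTL and ranged from 1454 over 1582 to 1700 in TAC CTL hearts, with overlap (0.15 ± 0.10 in CTL and 0.08 ± 0.10 in DKO hearts). The difference between the probes was 1.76 ± 0.18 in CTL and 2.07 ± 0.18 in DKO hearts.

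*Psmc2*, an ATPase, behaved alike. Its dimmer probe fell from 207, 185, 223 and 143 units in sham CTL to 58.5 over 85.4 to 98.0 in TAC CTL hearts (-1.23 ± 0.16), and from a sham DKO range of 161 to 203 to 51.5 over 66.3 to 90.5 (-1.41 ± 0.16). The brighter probe, at 4319 to 4593 units in sham CTL and 4114 over 4322 to 4898 in TAC CTL hearts, stood at -0.01 ± 0.06 and 0.08 ± 0.06. *Psmg2*, a chaperone of core assembly, had 2 probes that fell, by 0.66 and 0.69 log2 units in CTL and by 0.96 and 0.97 in DKO hearts. In CTL hearts each was under 1.5-fold without 1 sham CTL array, replicate 3 for the first (-0.54) and replicate 4 for the second (-0.55). Its brightest probe rose at an adjusted p under 0.05, from 387 to 498 units in sham CTL to 510.0 over 535 to 573 in TAC CTL hearts (0.34 ± 0.08 and 0.52 ± 0.08), and was at -0.14 and 0.04 with array medians set equal.

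To test such disagreement directly, the brightest probe of each gene was set against each of its other probes within every array. This removes any scaling that acts alike on both, but not one that differs with intensity. As deposited, the median TAC difference in CTL hearts was 0.28 over all probes and -0.06 over those with a mean above 200 units. Of 23 pairs in 18 member genes, 6 pairs differed by more than 1.5-fold at an adjusted p under 0.05 in CTL hearts (26.1%, against 22.2% of all 3463 pairs). In DKO hearts 7 pairs did (30.4%, against 28.5%). The share among members was thus close to that on the whole array. The genes were *Psmc2*, *Psmc5*, *Psmd1*, *Psmd12* and *Psmg2* in both genotypes, and *Psmd10*, which encodes the assembly chaperone gankyrin, in DKO hearts. *Psmd1*, the large scaffold of the base, was 0.35 ± 0.09 on its brightest probe and -0.31 ± 0.12 on its dimmest in CTL hearts. Which transcript or exon each probe meets is not given in the sources used here.

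**Figure D5:**
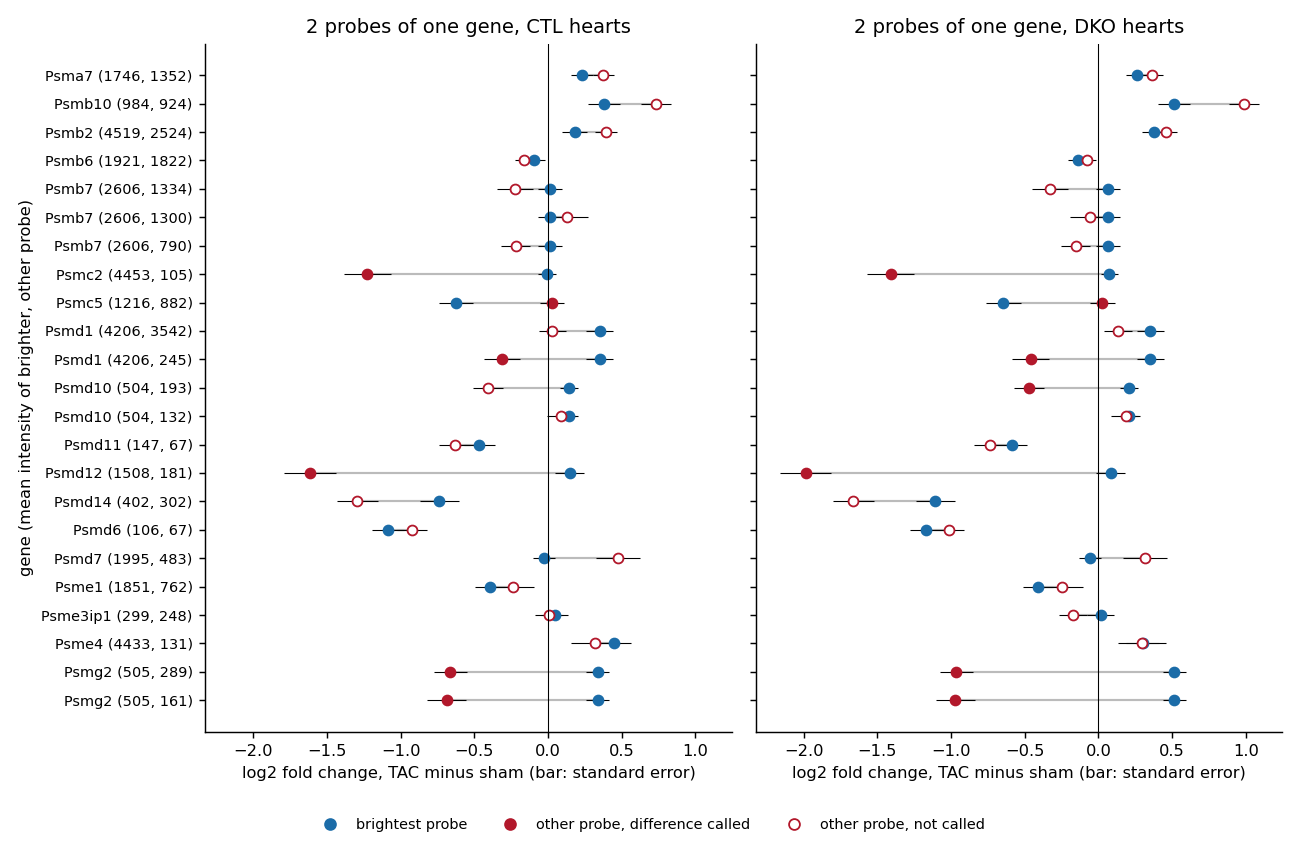
Log2 fold change of TAC against sham (x axis, bars are standard errors) for 23 pairs of probes of the same gene (y axis, with the mean intensities of both probes), in CTL and DKO hearts. Filled red points mark pairs whose difference was called, 6 in CTL and 7 in DKO hearts; *Psmd12*, *Psmc2* and *Psmg2* are the widest.

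Of the 7 probes for chaperones of 19S assembly, 0 passed the adjusted p upward and 2 downward in CTL hearts, and 2 and 2 in DKO hearts. Of the 6 for chaperones of core assembly, 2 passed upward and 2 downward in each genotype. Of the 6 for activators 2 and 1 passed in CTL and 1 and 1 in DKO hearts. Over all probes 11.7% passed upward and 10.2% downward in CTL hearts, and 15.4% and 12.7% in DKO hearts. *Psmd9*, a chaperone of the base, fell by less than 1.5-fold, from 87.8 to 102 units in sham CTL to 61.4 over 71.8 to 77.8 in TAC CTL hearts (-0.44 ± 0.09, limma adjusted p = 0.00107, and -0.50 ± 0.09 in DKO hearts). *Psmd5* passed on neither probe in CTL hearts, and in DKO hearts its dimmer probe passed near background (0.29 ± 0.09, limma adjusted p = 0.0217). *Psmg1* passed in neither genotype. *Psmg3*, a further chaperone of core assembly, was at 0.34 ± 0.10 in CTL (limma adjusted p = 0.0163) and 0.37 ± 0.10 in DKO hearts, and at -0.08 and -0.04 with array medians set equal. *Psme1*, a subunit of the PA28 activator, fell on its brightest probe by less than 1.5-fold, from 2190 to 2396 units in sham CTL to 1530 over 1743 to 2169 in TAC CTL hearts (-0.39 ± 0.10, limma adjusted p = 0.0067, and -0.41 ± 0.10 in DKO hearts). Its partner *Psme2* did not pass (0.19 ± 0.08 and 0.07 ± 0.08). *Psme3*, the nuclear PA28 subunit, passed at 0.30 ± 0.06 in CTL (limma adjusted p = 0.000412) and 0.24 ± 0.06 in DKO hearts, and was at -0.18 and -0.25 with array medians set equal. *Psme4*, the PA200 activator, was at 0.45 ± 0.11 in CTL (limma adjusted p = 0.005) and 0.30 ± 0.11 in DKO hearts (adjusted p = 0.0501), and at -0.01 and -0.15 with array medians set equal. *Psmc3ip* and *Psme3ip1* passed in neither genotype on their brightest probes.

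Genes that work with the proteasome were read from a list of 26 partners and regulators, of which 20 were on the array. By the brightest probe, 0 were called higher and 4 lower in CTL hearts, and 0 higher and 6 lower in DKO hearts. Over all probes, not only the brightest of a gene, 3.4% and 4.27% were called lower. *Sem1*, a further small lid subunit that is no member by its symbol, fell from 4458 ± 460 to 2403 ± 334 (SD) in CTL hearts (-0.90, limma adjusted p = 2.3e-06) and by 0.98 in DKO hearts. *Usp14* and *Uchl5*, deubiquitinases of the 19S particle, fell by 0.94 and 0.64 in CTL hearts and by 1.08 and 0.60 in DKO hearts, and *Ecpas*, which binds the core to the 19S particle, fell from 1110 ± 132 to 422 ± 53.0 units (SD) in CTL hearts and by 1.45 log2 units in DKO hearts. Other *Usp14* and *Ecpas* probes were near 0, from -0.21 to 0.01. *Pomp*, the maturation factor of the core, was at 0.28 and 0.35, and at -0.18 and -0.12 with array medians set equal, and *Nfe2l1*, the transcription factor Nrf1 that drives proteasome genes, did not pass (-0.11 and -0.15). No gene of this list was called between genotypes.

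Of 20 measured genes for ubiquitin conjugation and muscle ubiquitin ligases, *Cblb* was called lower (-0.84 in CTL and -1.05 in DKO hearts) and *Ube2n* was called higher in DKO hearts (0.61, and 0.13 with array medians set equal). A second *Ube2n* probe went the other way, at -1.11 in DKO hearts. The muscle ligase genes *Trim63* and *Fbxo32* were at 0.03 and 0.13 in CTL hearts and did not pass there, while *Fbxo32* passed in DKO hearts (0.44, limma adjusted p = 0.00562, and -0.05 with array medians set equal). Of the subunits left out by the rule, *Psmb9* was called higher in CTL hearts, with 143 ± 103 (SD) units in sham and 223 ± 26.2 in TAC hearts (0.90 ± 0.27, limma adjusted p = 0.0197, and 0.54 and no longer past the threshold with array medians set equal), and did not pass in DKO hearts (0.12). The test of the difference between genotypes gave an adjusted p of 0.939. *Psmb8* did not pass (0.12 and 0.11). Of 7 measured interferon and antigen processing genes, 0 were called in either genotype.

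Markers of several cell types moved with TAC as well. Of 7 measured cardiomyocyte markers, *Pln*, *Ryr2* and *Tnni3* were called lower in both genotypes. With the adjusted p alone, 0 of these markers were higher and 4 lower in CTL hearts, and 1 was higher and 5 lower in DKO hearts. Their list's mean log2 level, relative to all arrays, ran from 0.32 to 0.52 in sham CTL, 0.35 to 0.45 in sham DKO, -0.60 to 0.04 in TAC CTL and -0.50 to -0.02 in TAC DKO hearts. All 3 measured red blood cell markers were called higher in both genotypes, with list levels of -1.05 to -0.26 in sham CTL and -0.03 to 0.52 in TAC CTL hearts. Fibroblast markers were called higher for 3 of 8 genes and lower for 1 in each genotype. Of the 7 measured leukocyte markers, 1 was called higher and 1 lower in CTL hearts, and 0 and 2 in DKO hearts. Of 8 endothelial markers 0 were called in CTL and 1 higher in DKO hearts, and of 7 smooth muscle and pericyte markers 2 and 3 were called higher. Over all probes, not only the brightest of a gene, 1.76% were called higher and 3.4% lower in CTL hearts. In DKO hearts these shares were 2.46% and 4.27%. The marker counts are given after joint normalization only. The part of the markers in the proteasome differences was not tested.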

How the data were processed

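RNA of 20 ventricular samples was hybridised to Illumina bead chips. The deposited intensities are linear values that the authors obtained with GenomeStudio 2010.3, and sorted values showed that they had been quantile normalized within the sham and within the TAC arrays. The background correction is not given in the sources used here. No array column was left out. Values were set to log2, quantile normalized over 20 arrays and fitted with limma 3.58.1 in R 4.3.3, with 4 group means, empirical Bayes and Benjamini-Hochberg adjustment over 45281 probes. Errors of log2 differences are standard errors of the fit. A probe was near background when its mean was under 1.5 times the median of all probes (80.8 units) in every group, as were 23 member probes. Array number limits the precision. Names are from the platform annotation, brought up to date for 34807 of the 34885 probes with 1 symbol. Probes with array values were chosen from those called, the 4 of lowest p in each direction of a comparison, the catalytic subunits and genes with probes that disagreed. Members, lists, motifs and the tests were chosen with earlier results of these data known, and the probe-pair test and the printed promoters after seeing values. Same-numbered samples were checked for pairing. Scripts were tested on simulated data.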

Additional observations from a re-analysis of the deposited data

Results flagged for a closer look

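Of 132 sets of values (33 probes in each of the 4 groups), 7 had 1 array apart from the rest by Dixon's test, where chance gives about 1 in 20. Sham CTL replicate 4 was the array in 3 of them. It had 63.2 units on a *Psme4* probe, where the others had 119.5 to 128, 2420 units for *Psmd13*, where the others had 2018 to 2071, and 1054 units on the dimmest *Psmb7* probe, where the others had 800.3 to 812.5. Sham CTL replicate 2 was low on the *Psmd11* probe with a mean of 66.6 units (83.1 units, others 92.4 to 93.6). Sham DKO replicate 4 was high on the dimmer *Psmd6* probe (108.2 units, others 95.96 to 96.08) and sham DKO replicate 2 low on the brightest *Psmb7* probe (2237 units, others 2568 to 2585). In TAC CTL hearts replicate 6 was high on another *Psmb7* probe (1435 units, others 1224 to 1273).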

How the results depend on the processing

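No called probe changed direction under any alternative, and the counts between genotypes and for the interaction stayed at 0. Setting array medians equal gave 0 probes higher and 22 lower in CTL hearts and 0 and 23 in DKO hearts, against 1 and 11, and 1 and 13. The deposited values without further normalization gave 0 higher in CTL and 2 in DKO hearts. A log2 of the value plus 50 gave 6 lower in CTL hearts. Without a fold minimum there were 16 higher and 17 lower in CTL hearts, 18 and 21 in DKO hearts, and 12 and 11 probe pairs. A fold minimum of 1.2 gave 14 higher in each genotype and 11 pairs in CTL hearts. With only the brightest probe of each gene, chosen after seeing the data, 0 were higher and 4 lower in CTL hearts and 0 and 6 in DKO hearts. These are of 47 genes, with no such count over all genes. Leaving out 1 array at a time gave 1 to 2 higher and 8 to 11 lower in CTL hearts, with the 8 found without sham CTL replicate 4. In DKO hearts it gave 1 higher throughout and 11 to 13 lower. Pairs numbered 4 to 8 in CTL hearts (4 without sham CTL replicate 4, 8 without sham CTL replicate 2) and 7 to 8 in DKO hearts. *Psmb10* in CTL hearts was under 1.5-fold as deposited (0.55). Same-numbered samples did not deviate together throughout (r from -0.28 to 0.55), and the numbers were not taken as pairs. Between genotypes, a CTL array correlated best with the DKO array of its own number in 3 of 4 sham and 3 of 6 TAC cases. Between sham and TAC arrays this held for 1 of 4 in each genotype. With the replicate block the counts were 1 higher and 11 lower in CTL hearts, 1 and 13 in DKO hearts, 0 between genotypes and for the interaction, and 7 pairs in each genotype. Probes near background, 23 of 83, limit what can be said of their genes.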
